A study of Mus musculus with 2 samples.

Results

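The genes described here encode the proteins of the cytosolic ribosome, measured in RNA from mouse pancreatic islets. They were taken by symbol from a table of 17245 genes: symbols that begin with Rpl or Rps and go on with a number, plus Rplp0, Rplp1, Rplp2 and Rpsa, without the ribosomal S6 kinases and without named pseudogenes. The rule gave 84 genes, 52 of the large subunit and 32 of the small subunit. Islets are clusters of hormone-secreting cells in the pancreas, most of them insulin-producing β-cells. The study compared islets of wild-type mice (WT) with islets of mice named cGASβKO, which by the name lack the cytosolic DNA sensor cGAS in β-cells (KO). There was 1 library per genotype. Both groups of islets were freed with collagenase P, picked by hand and cultured in RPMI-1640 with serum before RNA extraction. The driver of the deletion, the deleted exon, the age and sex of the mice and any pooling of animals are not stated in the labels.

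A ribosome joins a small subunit, which reads the messenger RNA, to a large subunit, which forms the peptide bond and lets the new chain leave through a tunnel. Ribosomal proteins are made in near-equal numbers, and those left without a partner in assembly are degraded. Their messenger RNAs are short and abundant, and most begin with a C and a run of pyrimidines, the 5′ terminal oligopyrimidine (TOP) motif, through which mTORC1 and the RNA-binding protein Larp1 set their translation. β-cells depend on high rates of protein synthesis for insulin.

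With 1 library per genotype, none of the differences could be checked against replicates, and no p-value was computed. Values are FPKM, a read density scaled to gene length and library size, so levels between genes are compared per length, as far as the gene lengths used allow. Library totals recovered from the values were 14537660 reads for KO and 19097001 for WT, and the values of all 84 ribosomal protein genes came out as whole reads. Cgas, the gene named as deleted, was listed at 0.521 FPKM in KO and 0.205 in WT, a ratio of 2.55 with a 95% interval of 1.35 to 4.98 from at least 31 and 16 reads. Because Cgas RNA was not lower, KO is called the library labelled KO, and each direction is between the libraries as labelled. β-cell markers were the bulk of both libraries, at a summed 437700 FPKM in the library labelled KO and 397200 in WT over 12 genes. Genes that reached 1 FPKM in at least 1 of the libraries, 12428 in all, are called expressed.

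The start sites of 8 of these genes are shown first, because the TOP run is the feature that ribosomal protein mRNAs are best known to share. A pyrimidine run near the annotated start is also present at both ends of the range of differences given further on. Each window holds 10 bases before and 20 bases from the annotated RefSeq start on GRCm38.p6, 5′ to 3′ on the gene's strand. Capitals mark a C followed by at least 4 pyrimidines that begins within 10 bases of the start, and 2 windows have no such run. Only in Rpl28, Rps6 and Rpl15 is the annotated start itself a C followed by 4 pyrimidines, so the other marked runs need not be TOP motifs. Rpl13a is at chr7:45128726-45128755 (minus), Rpl28 at chr7:4792955-4792984 (plus), Rps24 at chr14:24490668-24490697 (plus) and Rpl41 at chr10:128549149-128549178 (minus). Rps6 is at chr4:86857348-86857377 (minus), Rpl4 at chr9:64173377-64173406 (plus), Rpl7a at chr2:26910797-26910826 (plus) and Rpl15 at chr14:18270967-18270996 (minus).
Rpl13a: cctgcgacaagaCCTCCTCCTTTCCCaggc
Rpl28: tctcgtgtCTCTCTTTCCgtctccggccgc
Rps24: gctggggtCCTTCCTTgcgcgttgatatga
Rpl41: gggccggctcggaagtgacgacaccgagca
Rps6: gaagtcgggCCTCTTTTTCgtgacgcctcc
Rpl4: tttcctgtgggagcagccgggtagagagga
Rpl7a: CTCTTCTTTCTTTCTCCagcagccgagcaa
Rpl15: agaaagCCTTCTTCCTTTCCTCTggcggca

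Ribosomal protein mRNAs were among the most abundant in both libraries. Together they held 35674 FPKM in the library labelled KO and 19494 in WT, which was 4.72% and 2.86% of all FPKM. The insulin genes Ins1 and Ins2 alone took 55.6% and 53.4%, and of the remainder the ribosomal protein genes held 10.6% and 6.13%. By reads they held at least 381593 (2.62%) and 274956 (1.44%) of the totals. Of the 84 genes, 72 reached 100 FPKM in the library labelled KO, where 395 genes of the table did so, and 70 reached it in WT, where 374 did. The median ribosomal protein gene was at 359 FPKM and 210 FPKM.

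Levels differed widely between genes whose proteins are present in near-equal numbers. Rpl41, which encodes the smallest ribosomal protein, was the highest in both libraries, with 2570 FPKM in the library labelled KO and 998.3 in WT. Rplp1, an acidic protein of the stalk that recruits elongation factors, followed at 1193 and 636 FPKM. In WT the next were Rpl10, which joins the large subunit late in assembly and shapes the peptidyl transferase centre, at 734 and 544 FPKM, Rps29 at 864 and 499 FPKM, and Rps3a1 at 645 and 458 FPKM. The lowest expressed genes were mostly paralogue rows, with Rps15a, a small-subunit protein of the ribosome itself, among them at 37.4 and 23.4 FPKM. Only Rpl10l, a retrogene of Rpl10 known from male germ cells, was under 1 FPKM in both libraries, at 0.336 and 0.102 FPKM, from at least 5 and 2 reads.

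The low place of Rps15a went with the gene length behind its FPKM. Its values come out as whole reads only for a length of at least 5136 nucleotides, against a longest coding sequence of 390. Per kilobase of coding sequence, by the smallest reads that fit, it ranked 42 of the genes with a coding length in WT, and by FPKM it ranked 79. True reads can be a multiple of the smallest, and for 8 genes the smallest length was below the coding length. The rank of 42 is therefore approximate. The length used was at least 3 times the coding length for 12 genes, among them Rps24 with at least 1961 against 399 nucleotides and Rps20 with at least 1723 against 357. Levels between genes therefore rest on the authors' gene models. The length cancels in a ratio of FPKM between the libraries, but which reads are counted for a gene still depends on its model.

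**Figure D1:**
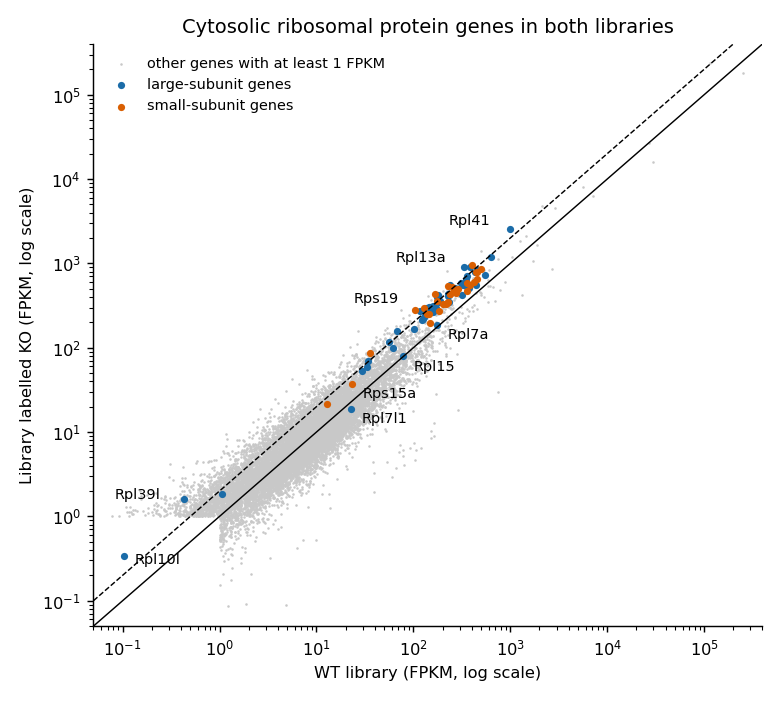
FPKM of each expressed gene in the WT library (x axis, log scale) and in the library labelled KO (y axis, log scale), with large-subunit genes in blue, small-subunit genes in orange and other expressed genes in grey. The solid line marks equal values and the dashed line a 2-fold higher value in the library labelled KO. Most ribosomal protein genes lie between the lines or above the dashed one, and Rpl7l1 lies below the solid line.

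The order of the genes was similar in the libraries, with a rank correlation of their FPKM of 0.959 over 84 genes and 0.947 over the 77 that are not paralogue rows. Both columns share gene lengths, so this describes the table and not independent measures. Of the 10 highest genes in each library 7 were shared, and 47 genes moved by 5 ranks or less. Rpl13a moved from rank 21 in WT to rank 5 in the library labelled KO, and Rps24 from 52 to 37. Rpl10 moved the other way, from rank 3 to 11, as did Rpl7a from 50 to 69, Rpl23a from 23 to 38 and Rps18 from 16 to 30.

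Nearly all ribosomal protein genes were higher in the library labelled KO. Their summed FPKM was 1.83 times that of WT, and the median ratio was 1.81. Differences are given as log2((KO + 1)/(WT + 1)), the log2 difference, with a pseudocount of 1 FPKM. Of the 83 expressed genes 82 lay above 0, where 54.4% of all expressed genes did. At least 2-fold higher were 23 (27.7%), against 868 of 12428 expressed genes (6.98%), and none was 2-fold lower, against 3.88%. Their median log2 difference was 0.846 with quartiles of 0.679 and 1.023, beside 0.077 with quartiles of -0.346 and 0.511 over all expressed genes.

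These counts move with the scale of the libraries. When both libraries were scaled to the same FPKM sum, the median of all expressed genes went from 0.077 to -0.055, 14 ribosomal protein genes were 2-fold higher, against 4.59% of 12300 expressed genes, and the median of the set lay 0.755 above that of all genes, beside 0.77 as deposited. Rpl7a and Rpl15 then joined Rpl7l1 below 0. Over the whole table the share of 2-fold calls that were higher was 64.3% as deposited, 44.6% with equal sums, 43.7% with equal sums without the 20 highest genes and 52.0% after scaling by the median ratio.

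Counting error is small beside these ratios. The exact 95% interval of the ratio, which covers counting error only, lay above 1 for 80 of the 84 genes, above 1.5 for 63 and above 2 for 17, and below 1 for 1. The ratio was between 1.5 and 2.5 for 64 genes. Among the 77 genes that are not paralogue rows the log2 difference had an SD of 0.29 across genes, against 0.642 across all expressed genes. These sets differ in level, with median WT values of 228 and 7.47 FPKM, and no set matched for level was compared.

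**Figure D2:**
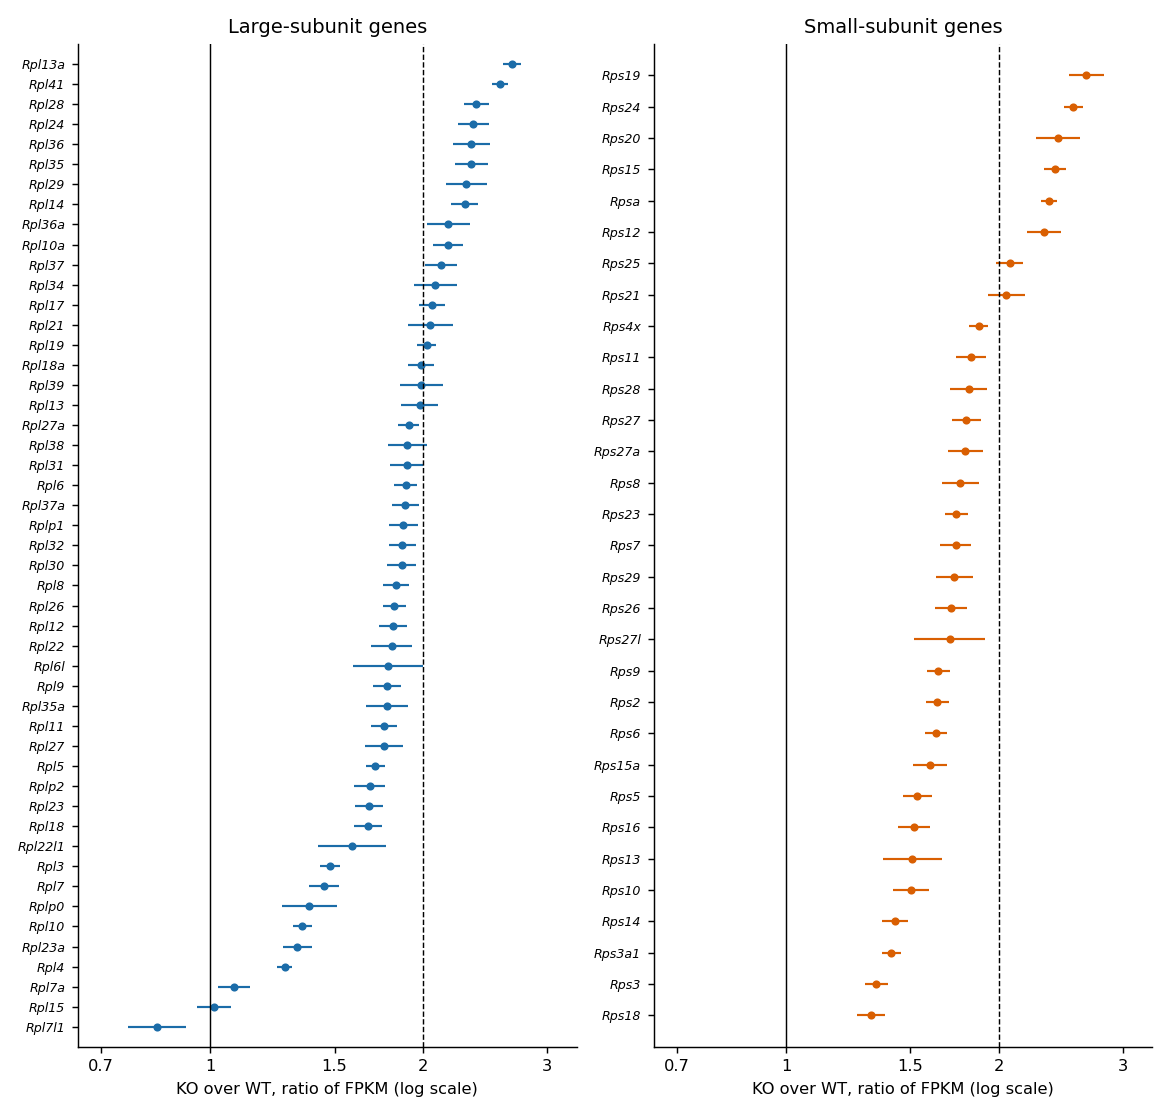
Ratio of FPKM in the library labelled KO over WT (log scale) for ribosomal protein genes that reached 5 FPKM, large subunit left and small subunit right, sorted. Points are ratios and bars exact 95% intervals for counting error only, the solid line marks 1 and the dashed line 2. Rpl13a is highest at 2.67 and Rpl7l1 lowest at 0.842.

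The widest differences were in Rpl13a and Rps19. Rpl13a, a large-subunit protein that can also leave the ribosome to silence inflammatory mRNAs and whose introns hold snoRNA genes, reached 895 FPKM in the library labelled KO and 335 in WT. The log2 difference was 1.42, a ratio of 2.67 with an interval of 2.60 to 2.75. Rps19, needed for maturation of the small subunit and the gene most often mutated in Diamond-Blackfan anaemia, was at 278 and 104 FPKM, a ratio of 2.66 with an interval of 2.51 to 2.82. For both genes the whole interval lay above 2.

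Rpl41 followed with a ratio of 2.57 and an interval of 2.51 to 2.64. Rps24, another small-subunit maturation protein mutated in Diamond-Blackfan anaemia, was at 428 and 168 FPKM, a log2 difference of 1.34. Rps15, whose protein reaches the decoding centre, was at 957 and 399 FPKM, a log2 difference of 1.26. These genes come from both subunits, and their places on the ribosome were not compared.

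Rps20, a protein of the small-subunit head, was at 87.2 and 35.9 FPKM, a log2 difference of 1.26. Rpl28 was at 907 and 382 FPKM with a log2 difference of 1.25, and its locus overlaps that of Ube2s. Rpl24, which forms a bridge between the subunits, was at 420 and 178 FPKM with a log2 difference of 1.23.

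At the other end, Rpl7l1 was the only expressed gene of the set below 0, with 19.03 FPKM in the library labelled KO and 22.6 in WT. Its ratio was 0.842 with an interval of 0.766 to 0.925. It encodes a relative of Rpl7 that is not part of the standard ribosome. Rpl15, a core protein of the large subunit needed for ribosomal RNA maturation, was at 78.9 and 77.9 FPKM, a ratio of 1.01 whose interval of 0.957 to 1.07 includes 1. Rpl15 thus stood at the same level within counting error while the median ribosomal protein gene was 1.81 times higher.

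Rpl7a was at 188 and 174 FPKM, a ratio of 1.08 with an interval of 1.03 to 1.14. Rpl4, whose long loop lines the exit tunnel, was at 560 and 439 FPKM, a log2 difference of 0.35. The small-subunit head proteins Rps18 and Rps3 were at 477 and 361 FPKM and at 199 and 148 FPKM, log2 differences of 0.40 and 0.42. Rpl23a, at the mouth of the exit tunnel, was at 421 and 317 FPKM with a log2 difference of 0.41. Each of these genes had at least 2689 reads in each library, so their place in the order does not come from few reads.

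Both subunits were higher. Of the large-subunit genes 15 of 51 expressed were at least 2-fold higher, and the median log2 difference was 0.897 and quartiles of 0.745 and 1.025. Of the small-subunit genes 8 of 32 were, with a median of 0.792 and quartiles of 0.611 and 0.935. The quartile ranges overlap over most of their length, and the difference between the subunits was not tested.

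The acidic stalk of the large subunit docks the elongation factors during each step of translation. None of its 4 genes reached 2-fold, and their median log2 difference was 0.803, or 0.058 with the trend on GC content and transcript length removed that is described further on. Rplp0, the stalk base, reached 512 FPKM in the library labelled KO and 371 in WT, a log2 difference of 0.46. Rplp1 and Rplp2, which bind it as dimers, had log2 differences of 0.91 and 0.75, from 1193 and 636 FPKM for Rplp1 and 554 and 329 FPKM for Rplp2. Rpl12, which anchors the stalk to ribosomal RNA, was at 476 and 262 FPKM with a log2 difference of 0.86. Within the stalk Rplp0 was the lowest, and its interval of the ratio, 1.26 to 1.51, lies below those of the other stalk genes.

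Rpl5, Rpl11 and Rpl23 can bind MDM2 when ribosome assembly fails and so stabilise p53. Rpl5 was at 295 and 172 FPKM, Rpl11 at 220 and 125 FPKM and Rpl23 at 268 and 160 FPKM. Their log2 differences were 0.77, 0.81 and 0.74, so as deposited these 3 genes lay close together and none reached 2-fold. With the trend on GC content and transcript length removed, as described further on, they lay further apart, at 0.92, 0.20 and 0.54.

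Of 9 genes around the exit tunnel 3 were 2-fold higher, and the 9 had a median of 0.922 and a range from 0.351 (Rpl4) to 1.225 (Rpl35). Of 8 small-subunit genes at the entry and exit of the mRNA channel, only Rpsa did so. Rpsa, the former laminin receptor, was at 537 and 228 FPKM with a log2 difference of 1.23, and the median of these 8 was 0.712. Of 6 genes listed for the decoding centre and the small-subunit head, a list that does not hold the head proteins Rps18, Rps3 and Rps20, 4 were 2-fold higher, Rps12, Rps15, Rps19 and Rps25, with a median of 1.128. With the trend on GC content and transcript length removed, as described further on, none of these 6 was 2-fold higher and their median was 0.516. Of 9 genes mutated in Diamond-Blackfan anaemia 2 were, Rps19 and Rps24, with a median of 0.794. These groups share members and are small, and none was compared with the others by a test. The 39 expressed genes in none of the role lists ran from 0.017 (Rpl15) to 1.416 (Rpl13a), and 14 of them were 2-fold higher.

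Rps6 is the ribosomal protein phosphorylated by the S6 kinases downstream of mTORC1. It reached 329 FPKM in the library labelled KO and 202 in WT, a log2 difference of 0.70 and a ratio of 1.63 with an interval of 1.57 to 1.69. It stood a little below the median of the set.

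Some rows encode paralogues, which replace or resemble a standard ribosomal protein. Of the list of 7 paralogues 5 had a row and 4 were expressed. Rpl22l1, which competes with Rpl22, was at 98.0 and 61.8 FPKM with a log2 difference of 0.66. Rps27l, a p53 target, was at 21.7 and 12.7 FPKM with a log2 difference of 0.72. Rpl39l, known from male germ cells, was at 1.60 and 0.426 FPKM, a ratio of 3.75 whose interval of 1.52 to 10.5 is wide, since it rests on at least 20 and 7 reads. None of the 4 reached 2-fold on the log2 difference scale, and their median was 0.691.

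Most parent genes were listed far above their paralogues by FPKM, with Rpl22 as an exception. Rpl22 was at 59.8 and 33.1 FPKM, so in both libraries Rpl22l1 was listed above its parent by FPKM. The caution on gene length given for Rps15a applies: the length behind Rpl22 is at least 2343 nucleotides, against 489 for Rpl22l1. Their coding sequences have 384 and 366 nucleotides. Rpl22 had at least 2038 reads in the library labelled KO and 1482 in WT, and Rpl22l1 at least 697 and 577. Per kilobase of coding sequence, by these smallest reads, the order was reversed, and Rpl22 ranked 67 and Rpl22l1 78 in WT. As for Rps15a, such ranks are approximate. Rps27 was at 790 and 439 FPKM with a log2 difference of 0.85, Rpl39 at 317 and 159 FPKM with 0.99, and Rps4x at 491 and 262 FPKM with 0.90. Rpl3 was at 347 and 234 FPKM with a log2 difference of 0.56, Rpl7 at 522 and 360 FPKM with 0.53, and Rpl10 had 0.43. None of the 7 parents reached 2-fold, and their median was 0.834. Rpl6l, a pseudogene in RefSeq despite its symbol, was at 53.0 and 29.7 FPKM, and Rpl32l, at 1.86 and 1.06 FPKM, rests on at least 4 and 3 reads. Without the paralogue and copy rows, a choice made after seeing the data, 77 genes remained, all of them above 0, with 23 at least 2-fold higher and a median of 0.858.

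Some ribosomal proteins have symbols that the rule does not take. Fau, a ubiquitin-like protein fused to the small-subunit protein eS30, reached 476 FPKM in the library labelled KO and 204 in WT, a log2 difference of 1.22. Rack1, a signalling scaffold on the small-subunit head, was at 350 and 234 FPKM with 0.58, and Rpl36al, a copy of Rpl36a, was at 265 and 204 FPKM with 0.37. Of these, Fau was at least 2-fold higher.

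The rest of the translation machinery had medians nearer to 0. Of 9 elongation factor genes none was 2-fold higher or lower, and their median log2 difference was 0.112, or -0.034 with equal FPKM sums. Eef1a1, which delivers aminoacyl-tRNA, reached 1654 FPKM in the library labelled KO and 1902 in WT, a log2 difference of -0.20. Eef2, which drives translocation, was at 427 and 500 FPKM with -0.23. Both mRNAs carry the TOP motif and lay on the other side of 0 from nearly all ribosomal protein mRNAs. The other elongation factors listed as TOP mRNAs lay above 0, among them Eef1g at 0.55 and Eef1b2 at 0.44. Of all 9 elongation factor genes 5 lay above 0 and 4 below.

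Of 19 TOP mRNAs outside the rule 11 lay above 0 and 2 were at least 2-fold higher, and the median was 0.317. The list holds ribosomal proteins outside the symbol rule, Fau and Rack1 among them, and both of the 2-fold higher genes, of which Fau is 1, are of this kind. Hnrnpa1, an RNA-binding splicing regulator, was at 52.0 and 78.0 FPKM with a log2 difference of -0.58. Pabpc1, the cytoplasmic poly(A)-binding protein, was at 90.6 and 119.7 FPKM with -0.40, and Tpt1, translationally controlled tumour protein, was at 1121 and 740 FPKM with 0.60. TOP mRNAs outside the rule thus lay on both sides of 0.

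Of 53 translation initiation factor genes 1 was 2-fold higher and 5 lower, with a median of -0.063. Eif2s3x, the gamma subunit of the factor that brings the initiator tRNA, was at 4.30 and 15.0 FPKM with a log2 difference of -1.59. Eif4ebp2 and Eif4ebp3, inhibitors of the cap-binding factor that mTORC1 controls, stood apart from each other. Eif4ebp2 was at 9.36 and 27.1 FPKM and Eif4ebp3 at 29.5 and 11.3 FPKM.

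Genes of ribosome assembly lay mostly below 0. Of 55 nucleolar and assembly factor genes none was 2-fold higher, 2 were lower and the median was -0.193. Over all expressed genes 3.88% were 2-fold lower. With the trend on GC content and transcript length removed, none of the 55 was 2-fold lower. Their median was then -0.074, beside -0.013 over all expressed genes. Pno1 and Utp18, which act in small-subunit processing, were at 9.32 and 20.2 FPKM and at 5.16 and 11.6 FPKM, log2 differences of -1.04 and -1.03. Mrto4, which prepares the site of the stalk on the large subunit, was at 15.5 and 7.99 FPKM with 0.88. Of 14 expressed genes of RNA polymerase I and its factors, which transcribe ribosomal RNA, none passed 2-fold either way, with a median of 0.286, Taf1c highest at 0.95 and Twistnb lowest at -0.69.

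Of 22 expressed regulators in the mTORC1 and MYC list 1 was 2-fold higher and 1 lower, with a median of -0.103. The higher one was Rps6kb2, which encodes an S6 kinase, with 51.2 FPKM in the library labelled KO and 14.04 in WT, a ratio of 3.65 with an interval of 3.28 to 4.06. The lower one was Eif4ebp2, and Larp4, an RNA-binding protein, had a log2 difference of -0.85. The log2 difference of Rps6kb2, 1.79, exceeded the 1.42 of Rpl13a, and the regulators lay on both sides of 0.

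**Figure D3:**
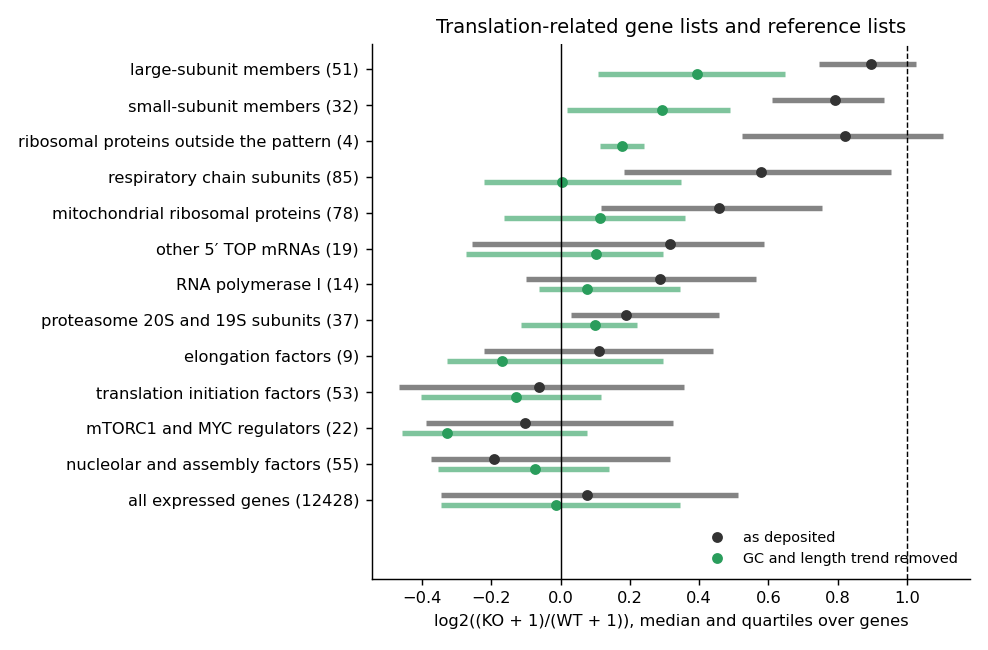
Median (points) and quartiles (bars) of the log2 difference over the expressed genes of each list, numbers in brackets, as deposited (grey) and after removal of the trend on GC content and transcript length (green). As deposited the ribosomal protein subunits have medians of 0.897 and 0.792, and after the trend is removed 0.393 and 0.293, beside 0.077 and -0.013 over all expressed genes.

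Other large complexes were also above 0 as groups, with lower medians. Of 78 mitochondrial ribosomal protein genes 66 lay above 0 and 4 were at least 2-fold higher, and the median was 0.457. Mrpl52, Mrpl54 and Mrpl24 were the highest of them, at log2 differences of 1.28, 1.23 and 1.23. Of 85 expressed respiratory chain genes 18 were at least 2-fold higher, a share of 21.2%, and their median was 0.578. Atp5e, a small subunit of ATP synthase, was at 416 and 141 FPKM with 1.55. Cox6a2 and Cox7a1, cytochrome c oxidase subunits, were at 136 and 41.6 FPKM with 1.68 and at 4.34 and 0.569 FPKM with 1.77. Of 37 expressed proteasome genes 2 were higher, the immunoproteasome subunits Psmb10 and Psmb8, with a median of 0.190.

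Across the whole table the difference moved with transcript length and GC content. Over 12123 expressed genes outside the set, the rank correlation of the log2 difference was -0.385 with transcript length and 0.425 with GC content. Ribosomal protein transcripts have a median length of 906 nucleotides, against 3109 over all expressed genes, and a median GC content of 51.6% against 50.5%. Among transcripts under 500 nucleotides the 10 ribosomal protein genes had a median of 0.881, with 30.0% at least 2-fold higher, and the 64 other genes had a median of 0.774, with 32.8%. The shares in the shortest transcripts were thus close.

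The gap to other genes was wider among transcripts annotated as longer and among abundant ones. Transcript length here is that of a gene's longest annotated protein-coding transcript, which can be far longer than the length behind the FPKM. Rpl9 counts as 2690 nucleotides and Rpl18 as 2989, with coding sequences of 576 and 564. The lengths behind their FPKM are at least 725 and 1648, so the gap among longer transcripts rests partly on such genes. From 500 to 1000 nucleotides the medians were 0.825 over 39 ribosomal protein genes and 0.584 over 576 others. From 1000 to 1500 nucleotides they were 0.915 over 21 and 0.445 over 1094, and from 1500 to 2500 nucleotides 0.804 over 8 and 0.243 over 2641. Among genes at 100 to 300 FPKM in WT the medians were 0.882 over 46 and -0.204 over 254. For transcripts both under 1000 nucleotides and at 100 FPKM or more in WT they were 0.856 over 43 and 0.487 over 56, and for those under 1000 nucleotides with at least 50% GC 0.865 over 33 and 0.678 over 430.

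**Figure D4:**
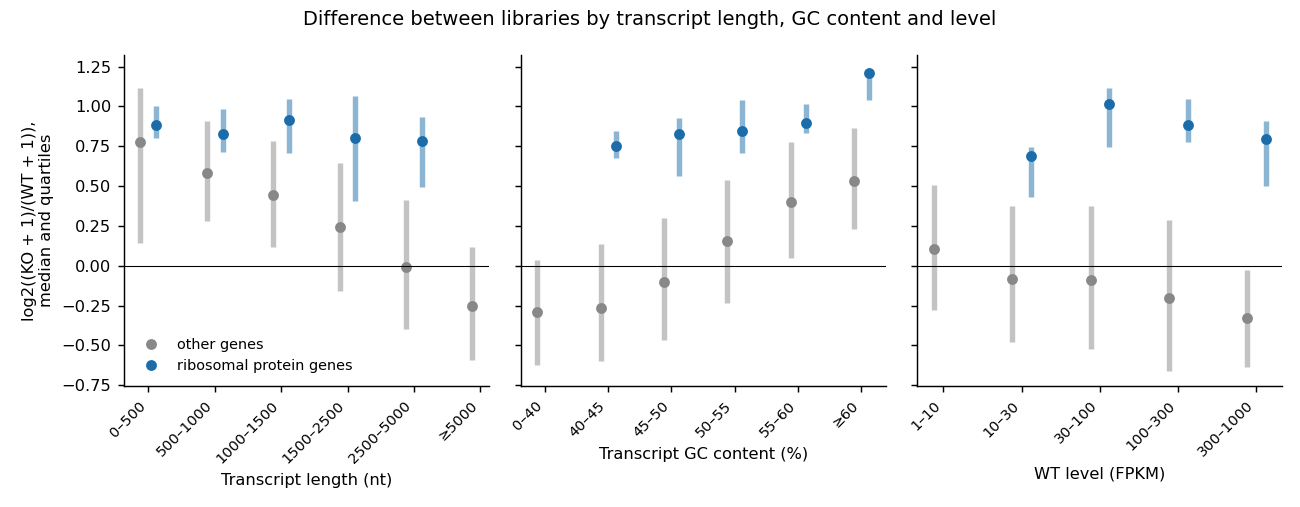
Median (points) and quartiles (bars) of the log2 difference for ribosomal protein genes (blue) and other expressed genes (grey), by transcript length, GC content and WT level. Length and GC content are those of the longest annotated protein-coding transcript, and groups under 4 genes are not drawn. Other genes decline from 0.774 in the shortest transcripts to -0.253 in the longest, and the ribosomal protein genes stay between 0.783 and 0.915 across the lengths drawn.

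With a smooth trend on GC content and then on transcript length removed, the median of the ribosomal protein genes was 0.353 with quartiles of 0.077 and 0.582, beside -0.013 over all expressed genes. Of the 83 genes 68 lay above 0, against 49.0% of the 12206 genes in this fit. At least 2-fold higher were 3, Rps20 at 1.59, Rps24 at 1.33 and Rpsa at 1.06, which is near the share over all of these genes (394, or 3.23%). The value of Rps20 rests on a coding transcript of 3706 nucleotides in GENCODE, far longer than its coding sequence. Rps15a at 0.99 and Rpl9 at 0.88 likewise rest on transcripts of 5179 and 2690 nucleotides. The same step brought the respiratory chain genes to a median of 0.003, the mitochondrial ribosomal proteins to 0.113 and the elongation factors to -0.170. The part of transcript length, GC content or RNA quality in the difference between the libraries was not tested further.

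Among the ribosomal protein genes themselves, those with long coding sequences differed less. The median log2 difference was 0.923 over 24 genes with a coding sequence under 400 nucleotides, where 10 were at least 2-fold higher, 0.839 over 39 genes from 400 to under 700, where 12 were, and 0.632 over 14 genes of 700 or more, where only Rpsa was. The rank correlation with coding length was -0.334 over the 77 genes that are not paralogue rows, with GC content 0.217 and with WT level -0.231. With transcript length it was -0.119 and with the smallest length behind the FPKM 0.046, so these other measures of length showed little relation. These points share their libraries. Rpl4 and Rpl3, which have the longest coding sequences, were among the lower genes, as was Rpl7a with 798 nucleotides, but Rpl15 at the low end and Rps19 and Rpl13a at the high end are of middle length.

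**Figure D5:**
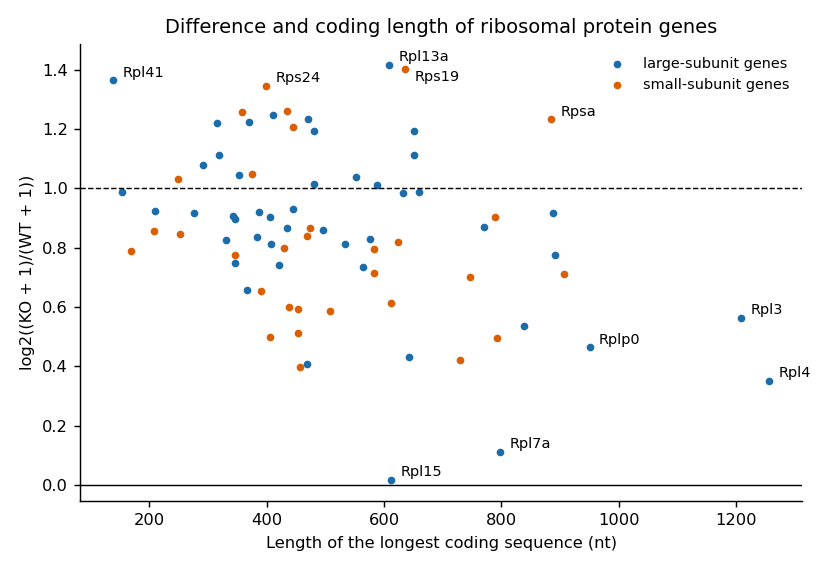
Log2 difference of ribosomal protein genes that reached 30 FPKM against the length of the longest coding sequence in nucleotides, large subunit in blue and small subunit in orange, with lines at 0 and 1. Of 14 genes of 700 nucleotides or more only Rpsa lies above 1, against 10 of 24 under 400.

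Markers of other cell types also differed between the libraries. Of 13 expressed acinar markers, out of 14, all 13 were 2-fold or more below WT in the library labelled KO, summing to 160.6 FPKM there and 2232 in WT. Of 12 endothelial markers 6 were 2-fold higher, with sums of 841.8 and 367.3 FPKM, and of 11 expressed macrophage markers, out of 12, 7 were, with sums of 384.4 and 166.6 FPKM. Stromal markers had 3 of 11 higher, with sums of 219.3 and 113.8 FPKM, and β-cell markers 1 higher and 4 lower of 12. All 5 expressed erythroid markers, out of 6, lay above 0 and 1 was 2-fold higher, with sums of 174.9 and 102.8 FPKM. None of these markers was at 0 in either library. With the trend on GC content and transcript length removed, 5 of 12 endothelial, 1 of 11 macrophage and 4 of 11 stromal markers were 2-fold higher. None of the 5 erythroid markers was then 2-fold higher, all 13 acinar markers were still 2-fold lower, and β-cell markers had 5 of 11 lower and none higher. Of 15 expressed immediate-early genes, which respond to handling and culture, 9 were 2-fold higher as deposited and 6 with that trend removed. Their sums were 404.3 and 177.4 FPKM. The part of these cells and of handling in the ribosomal protein values was not tested, and in whole islets fewer cells of a type and less RNA per cell cannot be told apart.

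The start windows shown earlier come from the 63 ribosomal protein genes with an entry in the RefSeq promoter table of GRCm38.p6, which covers 27025 genes and 250 bases before to 50 after each start. A C followed by 4 pyrimidines exactly at the annotated start was found for 14 of the 63 (22.2%), against 3.01% of all genes in the table. Within 10 bases of the start it was found for 39 (61.9%), against 34.4%. A gene can have several starts, and 1 with the run was enough. The 38 expressed genes with such a run near the start had a median log2 difference of 0.852 and the 24 without 0.821. The run was 14 bases in Rpl13a, the highest gene, and 17 in both Rpl15 and Rpl7a, the lowest of the standard ribosomal proteins, while Rpl41, among the highest, and Rpl4, among the lowest, had none in this window.

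Short motifs were searched on both strands of the promoters. CCGGAAG, the core bound by ETS factors, was in 26 of 63 promoter sets (41.3%), against 9.93% of all genes and 2160 of the 13507 other genes of the expression table. AAGATGGC, a core of the YY1 motif that can share its first bases with the end of CCGGAAG, was in 6 (9.52%), against 3.19%. TATAAA was in 8 (12.7%), which is below the 15.7% of all genes and above the 10.4% of the other genes of the expression table. CCAAT was in 19 (30.2%), against 41.1% and 42.5%. The 26 expressed genes with CCGGAAG had a median log2 difference of 0.891 and the 36 without 0.827. A match describes these letters in the window and no binding.

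The genes lie on 19 chromosomes, with 14 on chromosome 7. snoRNA genes, whose products guide ribosomal RNA modification, lie inside 30 of the expressed genes, with a median log2 difference of 0.863 against 0.839 for the other 53. The loci of 19 overlap another protein-coding gene, with medians of 0.839 and 0.856 for those that do not. Whether the counting used strand is not stated, so reads of such pairs are less certain, for example Rpl15 with Nkiras1, Rps18 with Vps52 and Rpl28 with Ube2s.

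Ribosomal protein genes have many processed copies in the genome, and reads can be split between a gene and its copies. The annotation names 319 pseudogenes after 63 of the genes, up to 24 for Rpl31. Genes with none, 1 to 4, and 5 or more named copies had medians of 0.778, 0.858 and 0.866, and the rank correlation with their number was 0.039. The highest copy rows of the table were Rps27rt at 96.7 and 62.3 FPKM, Rpl37rt at 48.1 and 23.0 FPKM and Rpl34-ps1 at 25.8 and 9.89 FPKM. Single-gene values of this family are uncertain to that extent.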

How the data were processed

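The authors deposited 1 table of FPKM values with 1 column per genotype. The build was GRCm38 (mm10), per the submitters' processing notes, and the library kit was SMARTER mRNA-Seq, per the labels. No aligner, counter, annotation, strand setting or filter is named in the labels or the file header. FPKM values were used as deposited. Genes under 1 FPKM in both libraries were left out, and 2-fold on the log2((KO + 1)/(WT + 1)) scale was the call, a scale that understates the change of low genes. Whole reads were recovered for 17178 of 17245 genes (99.6%) (tolerance 1e-05 reads, plus a relative 1e-09). The smallest reads that fit, which summed to 91.3% and 90.1% of the totals, gave exact Clopper-Pearson 95% intervals. True reads can be a multiple of these. Reads without molecular identifiers are not independent molecules. Recovery and intervals were tested on simulated data.

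The trend was a lowess (fraction 0.3, 3 iterations) on GC content, then log2 length, of GENCODE M21 transcripts, for 12206 of 12428 expressed genes (98.2%). All 84 symbols matched RefSeq. Python 3.11.15, scipy 1.17.1 and statsmodels 0.14.6 were used.

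The members, lists and alternatives were chosen with earlier results of these data known. The rule named the 8 highest and 8 lowest log2 differences, the 5 highest and 5 lowest WT levels, the stalk, MDM2-binding, paralogue and parent genes, Rps6, Rpl13a, ribosomal proteins outside the symbol rule, and up to 3 genes of each other list. Rpsa, Rpl35, Rps12, Rps25, Rpl31, Rpl6l, the copy rows, Hnrnpa1, Eef1a1, Eef2, Eef1g, Eef1b2, Pabpc1 and Tpt1 were named after their values were seen. Values of a few single genes are not reported here.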

Additional observations from a re-analysis of the deposited data

How the results depend on the processing

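No paired analysis was possible because each genotype has 1 library, and for the same reason no replicate could be left out. The median log2 difference of the ribosomal protein genes, 0.846 as deposited, was 0.821 with a pseudocount of 5, 0.7 with equal FPKM sums, 0.696 with equal sums without the 20 highest genes, 0.757 after scaling by the median ratio, 0.353 with the GC and length trend removed, 0.834 as a mean, and 0.858 without the paralogue rows, an alternative chosen after seeing the data. In the same order the large-subunit value of 0.897 became 0.886, 0.755, 0.751, 0.812, 0.393, 0.842 and 0.911, and it was 0.884 with no floor. The small-subunit value of 0.792 became 0.781, 0.645, 0.641, 0.702, 0.293 and 0.822. The median of all expressed genes, 0.077, became 0.089 and 0.046 with pseudocounts of 0.1 and 5, 0.061 with no floor, 0.041 with a floor of 5 FPKM, and crossed 0 to -0.055, -0.059, -0.004 and -0.013 under the 3 scalings and the trend removal. The 23 genes at least 2-fold higher became 14 with equal sums, with or without the 20 highest genes, and 3 with the trend removed, and stayed between 16 and 24 otherwise. The cause of these shifts was not tested. Of 38 named genes 8 changed sign under at least 1 of 8 alternatives: Rpl15, Rpl7a, Rpl23a, Rpl32l, Rplp1, Rps18, Rps27 and Rps29. Depth leaves the ratio of Rpl10l, Rpl32l and Rpl39l wide, and for 14 genes, these included, the counting interval includes 2.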
